A study of Mus musculus with 4 samples.

Results

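The genes examined here are 34 members of the BMP and activin pathways. They comprise 10 BMP and GDF ligands, 3 activin and myostatin ligands, 6 receptors, 6 secreted antagonists, 3 inhibitors of the membrane or the cytoplasm, 2 signalling Smads and 4 *Id* genes that respond to the pathway. They were chosen by name and role, by a rule that uses no measured value, though with earlier results of these data known. All 34 were found among the 23284 genes of the count files, and all 34 were among the 15645 genes that passed the filter on low counts.

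RNA was sequenced from mesenchymal cells of E13.5 mouse limbs (strain C57BL/6J), sorted by FACS for GFP. The GFP is expressed from the *Osr1* GCE allele, a knock-in of eGFP and the tamoxifen-dependent recombinase CreERt2 in the gene for the transcription factor Osr1, which marks irregular connective tissue around developing muscle. There were 2 GCE/+ samples, with 1 functional copy of *Osr1*, and 2 GCE/GCE samples, with none. All 4 samples carried the GCE allele, so the reference group is heterozygous rather than wild type, and the gate selected cells by the activity of the *Osr1* locus itself, with 1 GFP copy in one genotype and 2 in the other.

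BMPs and activins are secreted dimers of the TGF-β superfamily. They bind pairs of type I and type II receptor kinases. BMP receptors then phosphorylate Smad1 and Smad5, which switch on target genes such as the *Id* genes, while activins and myostatin act mainly through Smad2 and Smad3. Secreted proteins such as Noggin, Gremlin, Chordin and Follistatin trap the ligands outside the cell. In the limb bud these signals control digit patterning, cartilage condensation, joint formation and the growth and differentiation of muscle progenitors.

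A sample held between 52121596 and 61402140 counted fragments. Levels are given as CPM, counts scaled to a common library size, after TMM normalization, and 3 counts, taken as the floor, amount to at most 0.0576 CPM. *Osr1* itself had 81.9 and 79.1 CPM in GCE/+ replicates 1 and 2 and 11.9 and 13.9 CPM in GCE/GCE replicates 1 and 2, lower in the direction the labels give. Genotypes were compared by edgeR's quasi-likelihood test, and a gene was called at a Benjamini-Hochberg adjusted p under 0.1 over all tested genes. The level of *Xist* was 1142 CPM in GCE/GCE replicate 1 against 0.572 to 2.63 CPM elsewhere. A list of 11 limb mesenchyme markers, *Osr1* included, summed to 16310 and 14890 CPM in GCE/+ replicates 1 and 2 and 13940 and 12280 CPM in GCE/GCE replicates 1 and 2, and 4 of the 11 were lower by DESeq2. Summed over 14 cartilage markers the level was 1025 and 1525 CPM in the GCE/+ samples and 2166 and 2342 CPM in the GCE/GCE samples, and over 17 macrophage markers it was 390.9 and 396.2 against 245.1 and 172.4 CPM. No gene of either list was at 0 in all samples. In sorted bulk samples, fewer cells of a type and less RNA per cell cannot be told apart.

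Across the 34 genes, 1 passed the test. *Bmp4* was called lower in GCE/GCE cells, and no member was called higher. That is 2.94% of the members, against 1.82% of all tested genes. DESeq2 called 5 of the 34 (14.7%), against 3.45% of the genes it tested. *Bmp4* and the activin antagonist *Fst* were lower by that test, while the ligands *Bmp5* and *Inhba* and the BMP antagonist *Chrdl1* were higher. At an unadjusted p under 0.05 in edgeR there were 11 members (32.4%), 8 higher and 3 lower, against 10.5% of all tested genes.

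Many differences were no larger than the spread between the GCE/+ samples. The median log2 fold change of the 34 genes was 0.06, within a range of -0.45 to 0.63, and 20 genes were above 0 and 14 below. The median over all tested genes was 0.00. Regardless of sign, the median difference between genotypes was 0.16 for the members and 0.10 for all genes, on the log2 scale. The GCE/+ samples differed from each other by a median of 0.20 for the members, and the GCE/GCE samples by 0.09. Over all genes these values were 0.15 and 0.11. For 16 of the 34 genes the gap between the GCE/+ samples was larger than the difference between genotypes. The gap between the GCE/GCE samples was larger than it for 12 of the 34. Neither share was counted over all tested genes, so these counts cannot be read as a trait of the members. Both GCE/GCE samples lay above both GCE/+ samples for 14 members (41.2%), against 19.2% of all genes. Both lay below for 8 members (23.5%), against 19.1% of all genes, and the groups overlapped for the other 12.

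Some members stood in the same order over the 4 samples as a summed marker list. For cartilage these were 7 of the 34, namely *Gdf5*, *Bmpr1b*, *Bmpr2*, *Acvr2a*, *Grem1*, *Chrdl1* and *Smad5*, all lowest in GCE/+ replicate 1 and highest in GCE/GCE replicate 2. *Fst* and *Gdf10* followed the falling order of the limb mesenchyme markers, which is also that of 10 endothelial markers. *Bmp3*, *Bmp5*, *Inhba* and *Nog* followed 9 ectoderm markers, which summed to only 24.9 to 30.7 CPM. The tendon, muscle and erythroid lists were each matched by 1 member, and the macrophage list by 2. The share of all tested genes in each order was not counted, so these matches cannot be read as a trait of the members. Genes whose groups are apart can take only a few of the possible orders, so some matches can arise without any link. The part of these markers in the members' differences was not tested.

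**Figure D1:**
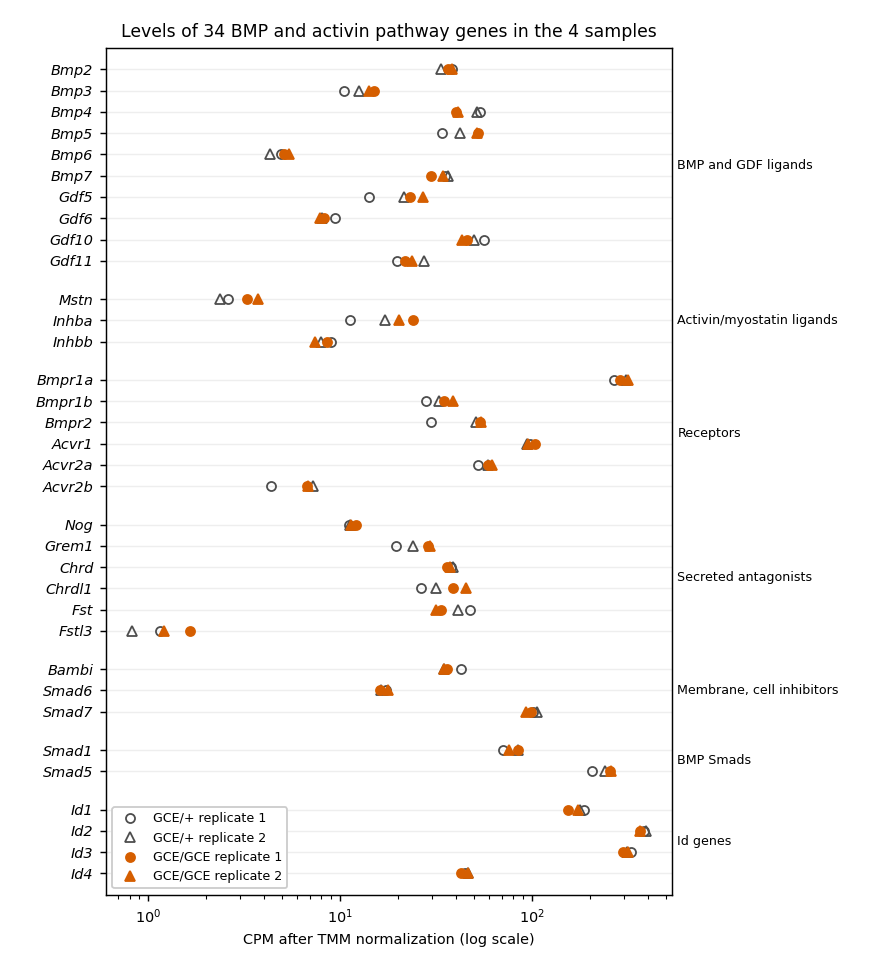
Level of each of the 34 genes in each sample, as CPM after TMM normalization on a log scale, with genes grouped by role, GCE/+ samples as open and GCE/GCE samples as filled symbols. Levels run from 0.822 CPM for *Fstl3* to 393 CPM for *Id2*, and *Inhba* spans 11.3 to 23.9 CPM over the 4 samples.

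*Bmp4* encodes a BMP ligand of the limb mesenchyme that acts in patterning, programmed cell death and the control of muscle progenitors. It had 53.8 and 51.96 CPM in GCE/+ replicates 1 and 2 and 40.2 and 41.0 CPM in GCE/GCE replicates 1 and 2. The groups did not overlap, and the samples of each genotype lay close together. Its log2 fold change was -0.38 (SE 0.08, 95% interval -0.57 to -0.19), a change of -23.2%, with an adjusted p of 0.0988 in edgeR and 0.0322 in DESeq2. The edgeR value lies just under the threshold. It was 0.171 without GCE/+ replicate 1, 0.231 without GCE/GCE replicate 1 and 0.252 without GCE/GCE replicate 2, and 0.0585 without GCE/+ replicate 2. On the opposite strand, *Gm15217* overlaps 89 bases of *Bmp4* exons and had at most 0.131 CPM. Reads from those bases cannot be assigned to either gene. The estimate itself stayed between -0.41 and -0.34 in every setting tried. The study picked *Bmp4* for display from genes called on these same samples, so the call is not independent evidence of its direction. The study also reports a lower *Bmp4* level in *Osr1*-deficient cells by RT-qPCR, measured in embryos other than those sequenced.

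The *Bmp4* gene lies on chromosome 14 of GRCm38 from 46383520 to 46390669, on the minus strand. Its promoter is shown because it is the 1 member called by edgeR. The 250 bases before the RefSeq start site, chr14:46390670-46390919 on the minus strand of GRCm38.p6, read 5′ to 3′ as follows, with a GC box, the general promoter element GGGCGG, in capitals.

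Bmp4: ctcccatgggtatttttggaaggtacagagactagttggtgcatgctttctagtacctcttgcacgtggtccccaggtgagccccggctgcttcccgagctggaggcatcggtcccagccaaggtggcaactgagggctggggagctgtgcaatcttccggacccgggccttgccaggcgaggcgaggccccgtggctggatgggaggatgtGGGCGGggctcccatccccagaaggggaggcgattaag

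The GC box was marked after the sequence had been read. RefSeq windows of 250 bases before to 50 after a start site were matched by symbol for 23 of the 34 members, and the *Bmp4* window holds the GC box 1 time. On either strand this element was present in windows of 19 of the 23 members and in 35.7% of 32851 windows of all genes. The letters GCTACTG, core of the motif bound by Osr proteins, were in the window of *Bmp4* 0 times and in those of 0 of the 23 members, and in 3.7% of all windows. The letters GGCGCC, bound by BMP Smads, were found for 8 of the 23, not including *Bmp4*, and in 11.9% of all windows. These are matches of letters in short windows and do not show binding.

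Compared per length, *Bmp4* was the highest of the 13 ligands in each sample. It had 26.1 and 25.2 CPM per kilobase of transcript in GCE/+ replicates 1 and 2 and 19.5 and 19.9 in GCE/GCE replicates 1 and 2. *Bmp2* had 9.44 to 10.8, *Bmp7* 8.13 to 9.95 and *Gdf10* 8.29 to 10.8 CPM per kilobase over the 4 samples. The place of *Inhba* in this order depends on the transcript used. Its mean in GCE/+ cells was 9.31 CPM per kilobase on the RefSeq-linked transcript and 2.23 on the longest one, while *Bmp4* led on both.

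Among the other BMP ligands, *Bmp5*, which shapes skeletal elements and soft tissue, stood at 34.1 and 42.1 CPM in GCE/+ replicates 1 and 2 and at 52.5 and 51.8 CPM in GCE/GCE replicates 1 and 2. Both GCE/GCE samples were above both GCE/+ samples. The log2 fold change was 0.45 (SE 0.11, 95% interval 0.19 to 0.71), with an adjusted p of 0.129 in edgeR and 0.0299 in DESeq2. Without GCE/+ replicate 1 it was 0.30 (edgeR adjusted p = 0.282). Without GCE/+ replicate 2 it was 0.61 (edgeR adjusted p = 0.0200). The gene lies on chromosome 9 from 75775364 to 75900310, and 1878 bases of its exons are also covered by the antisense gene *Gm26903*. The library kit does not mark strand, so reads from that stretch cannot be assigned to either.

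*Bmp2*, a close relative of *Bmp4* that binds the same receptors, showed no such separation. Its levels were 38.1 and 33.6 CPM in GCE/+ replicates 1 and 2 and 36.4 and 38.3 CPM in GCE/GCE replicates 1 and 2. The groups overlapped, with a log2 fold change of 0.06 and a 95% interval from -0.17 to 0.29. *Bmp7*, a further mesenchymal ligand, had 35.1 and 36.5 CPM in the GCE/+ samples against 29.8 and 34.2 CPM in the GCE/GCE samples. The log2 fold change was -0.16 (95% interval -0.39 to 0.07). *Bmp6* was low at 4.34 to 5.42 CPM, with a log2 fold change of 0.18 (SE 0.16).

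*Bmp3* and *Gdf10*, also called *Bmp3b*, form a branch of the family that often counteracts other BMPs, and their estimates had opposite signs. *Bmp3* had 10.5 and 12.6 CPM in GCE/+ replicates 1 and 2 and 15.0 and 14.2 CPM in GCE/GCE replicates 1 and 2 (log2 fold change 0.34, SE 0.13, edgeR adjusted p = 0.405). *Gdf10* had 56.5 and 49.6 CPM in GCE/+ replicates 1 and 2 and 46.0 and 43.2 CPM in GCE/GCE replicates 1 and 2 (log2 fold change -0.25, SE 0.10, edgeR adjusted p = 0.381). Neither pair of groups overlapped, and neither gene was called by edgeR or DESeq2 on all 4 samples. Without GCE/+ replicate 1 the estimates were 0.21 for *Bmp3* and -0.16 for *Gdf10*. Without GCE/+ replicate 2, *Gdf10* had an edgeR adjusted p of 0.0975 and *Bmp3* of 0.127. The difference between these relatives was not tested.

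The GDF ligands *Gdf5*, *Gdf6* and *Gdf11* were measured as well. *Gdf5*, a marker of the joint interzone, had 14.2 and 21.5 CPM in GCE/+ replicates 1 and 2 and 23.1 and 27.0 CPM in GCE/GCE replicates 1 and 2. GCE/+ replicate 1 stood lowest, and the gap between the GCE/+ samples (0.60 on the log2 scale) was larger than the log2 fold change of 0.49 (SE 0.19, edgeR adjusted p = 0.370, DESeq2 adjusted p = 0.196). Without GCE/+ replicate 1 the estimate was 0.21 (edgeR adjusted p = 0.813). The edgeR adjusted p was 0.0275 without GCE/+ replicate 2 and 0.0227 without GCE/GCE replicate 1. The summed cartilage markers stood in the same order over the 4 samples as *Gdf5*, and their part in its difference was not tested. The gene *Gm15557* overlaps 936 bases of *Gdf5* exons on the opposite strand and was not analysed here, so reads of that stretch are uncertain. *Gdf6* had 7.84 to 9.44 CPM and *Gdf11* 19.9 to 27.4 CPM, and for both the groups overlapped.

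**Figure D2:**
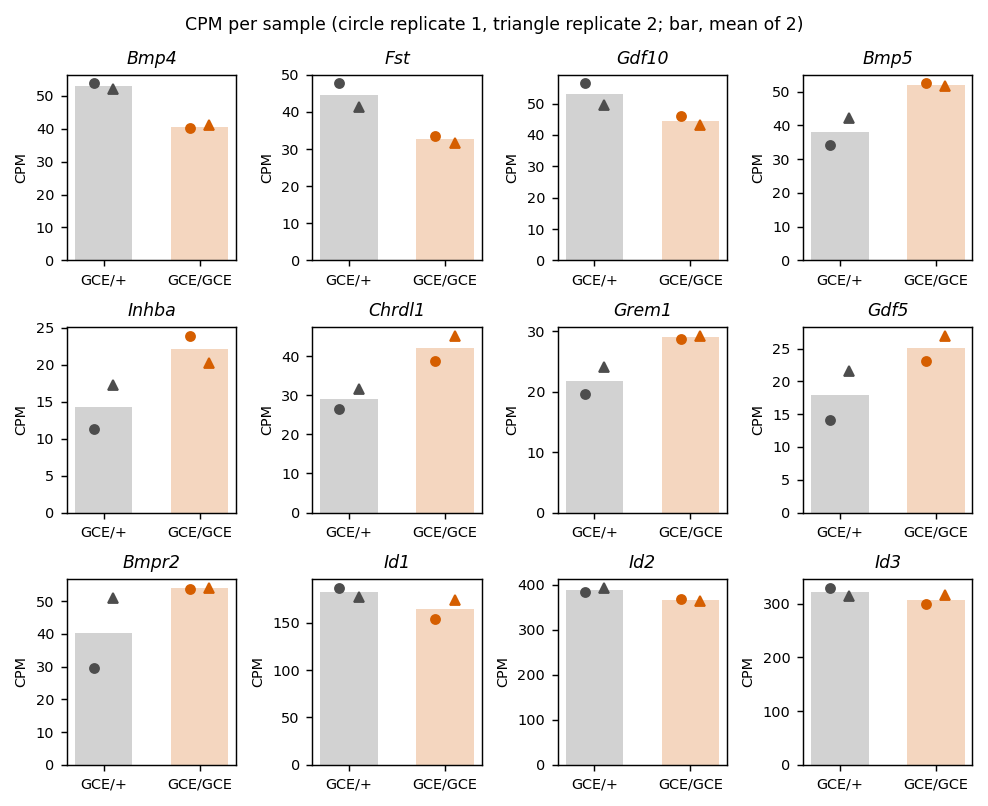
CPM of 12 members in each sample, with a circle for replicate 1, a triangle for replicate 2 and a bar for the mean of the 2 samples of a genotype. Both GCE/GCE samples are below both GCE/+ samples for *Bmp4*, *Fst*, *Gdf10*, *Id1* and *Id2*, the groups overlap for *Id3*, and the GCE/+ samples differ most from each other for *Bmpr2*.

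Activin and myostatin ligands form a separate branch, known for regulating gonadotropin release and for restraining muscle growth. *Inhba*, which encodes the subunit of activin A, had 11.3 and 17.2 CPM in GCE/+ replicates 1 and 2 and 23.9 and 20.2 CPM in GCE/GCE replicates 1 and 2. Its log2 fold change of 0.63 (SE 0.19, 95% interval 0.20 to 1.07) was the highest of the 34 genes. The adjusted p was 0.217 in edgeR and 0.0408 in DESeq2. The groups did not overlap, but the GCE/+ samples differed by 0.60 on the log2 scale. Without GCE/+ replicate 1 the estimate was 0.35 (edgeR adjusted p = 0.477) and without GCE/+ replicate 2 it was 0.96 (edgeR adjusted p = 0.0209). It was 0.75 without GCE/GCE replicate 2 (edgeR adjusted p = 0.00365).

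*Mstn*, which encodes myostatin, was low at 2.61 and 2.37 CPM in the GCE/+ samples against 3.29 and 3.72 CPM in the GCE/GCE samples. Its log2 fold change was 0.49 (SE 0.19, edgeR adjusted p = 0.371, DESeq2 adjusted p = 0.714). Both GCE/GCE samples were above both GCE/+ samples. Muscle markers, 11 genes and 0 of them at 0 in all samples, summed to 185.4 and 208.4 CPM in GCE/+ replicates 1 and 2 and 238.2 and 205.7 CPM in GCE/GCE replicates 1 and 2, and their part in the *Mstn* values was not tested. *Inhbb*, which encodes the subunit of activin B, had 7.37 to 8.95 CPM with overlapping groups.

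The secreted antagonists were the group in which no gene overlapped between genotypes, with 4 of 6 higher and 2 lower in GCE/GCE cells. Over all tested genes, 19.2% were separated upward and 19.1% downward. Of the 6, edgeR called 0 and DESeq2 called 2, where DESeq2 called 3.45% of all genes. The largest difference was that of *Chrdl1*, which encodes a Chordin-like protein that binds BMPs. It had 26.4 and 31.7 CPM in GCE/+ replicates 1 and 2 and 38.9 and 45.3 CPM in GCE/GCE replicates 1 and 2. The log2 fold change was 0.54 (SE 0.12, 95% interval 0.26 to 0.81), with an adjusted p of 0.104 in edgeR and 0.00802 in DESeq2. In edgeR the adjusted p was 0.0335 without GCE/+ replicate 2 and 0.00270 without GCE/GCE replicate 1. It was 0.259 without GCE/+ replicate 1 and 0.216 without GCE/GCE replicate 2.

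*Chrdl1* lies on the X chromosome of GRCm38 from 143285674 to 143394262. GCE/GCE replicate 1, the sample with high *Xist*, had the lower *Chrdl1* level of its genotype, and the log2 fold change was 0.64 without it, a value that rests on 1 GCE/GCE sample. *Chrdl1* also stood in the order of the summed cartilage markers. The part of either in its difference was not tested.

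*Fst* encodes Follistatin, which neutralizes activins and myostatin and, less tightly, some BMPs. It had 47.7 and 41.2 CPM in GCE/+ replicates 1 and 2 and 33.6 and 31.6 CPM in GCE/GCE replicates 1 and 2. Both GCE/GCE samples were below both GCE/+ samples, in the order of the limb mesenchyme sum, whose part was not tested. The log2 fold change was -0.45 (SE 0.10, 95% interval -0.68 to -0.21), the lowest of the 34 genes, with an adjusted p of 0.107 in edgeR and 0.0204 in DESeq2. The edgeR value was 0.0317 without GCE/+ replicate 2 and 0.0489 without GCE/GCE replicate 1, and 0.25 and 0.253 without either other sample. *Fst* lies on chromosome 13 from 114452290 to 114458951, with 115 bases of its exons shared with the antisense gene *Gm47040*. *Inhba* on the same chromosome (16011851 to 16031621) encodes a ligand that Follistatin binds, and its level was higher in GCE/GCE cells by DESeq2. The difference between both genes' changes was not tested.

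*Grem1* encodes Gremlin, the antagonist that links BMP signalling to the outgrowth of the limb bud. It had 19.6 and 24.0 CPM in GCE/+ replicates 1 and 2 and 28.7 and 29.3 CPM in GCE/GCE replicates 1 and 2. The groups were apart, with a log2 fold change of 0.41 (SE 0.12), an edgeR adjusted p of 0.205 and a DESeq2 adjusted p of 0.115. Without GCE/+ replicate 1 the estimate was 0.26 (edgeR adjusted p = 0.497) and without GCE/+ replicate 2 it was 0.57 (edgeR adjusted p = 0.0405). Without GCE/GCE replicates 1 and 2 in turn the edgeR adjusted p was 0.205 and 0.362. The 4 samples stood in the order of the cartilage sum, whose part in the *Grem1* difference was not tested. *Nog* and *Chrd*, which encode the classical antagonists Noggin and Chordin, differed little, with log2 fold changes of 0.07 (95% interval -0.21 to 0.35) and -0.06 (95% interval -0.26 to 0.14). *Nog* had 11.1 to 12.1 CPM and *Chrd* 36.0 to 38.6 CPM over the 4 samples. *Fstl3*, a relative of *Fst*, was the lowest member at 0.822 to 1.65 CPM, and its log2 fold change of 0.52 had an SE of 0.28. The gene *Prss57* overlaps 1157 bases of *Fstl3* on the opposite strand and had at most 0.0328 CPM. Without strand marking, reads from that stretch cannot be assigned to either gene, so the levels of both are uncertain.

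**Figure D3:**
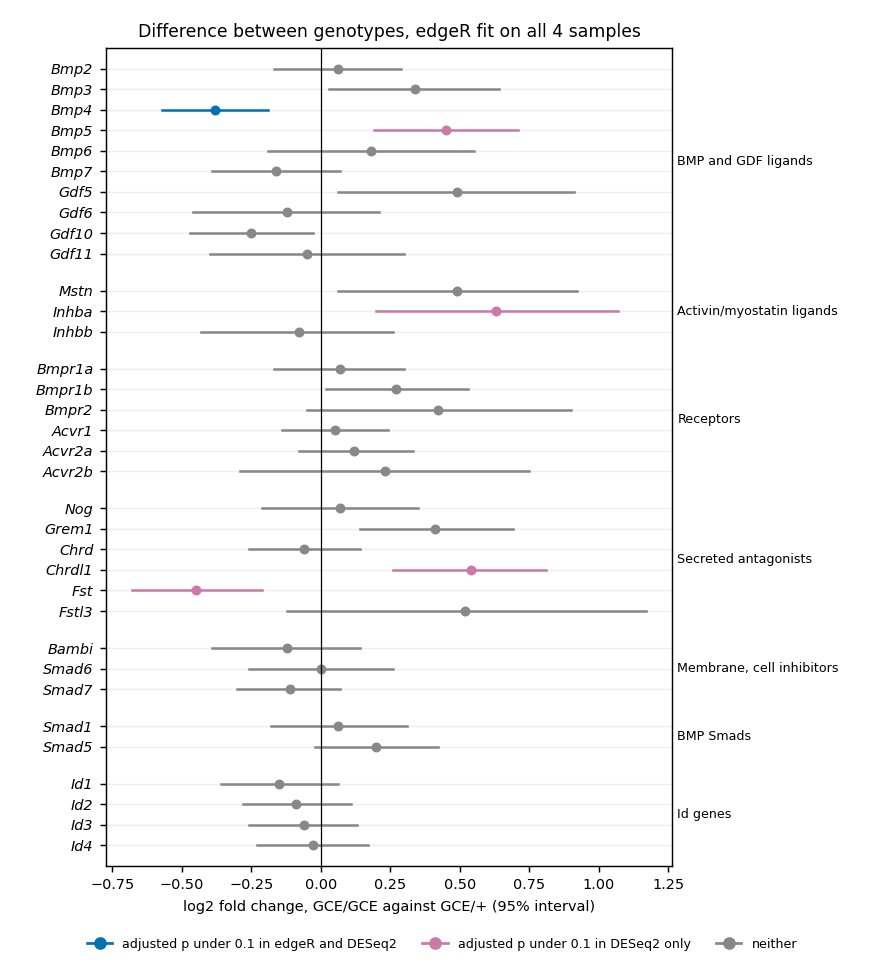
Log2 fold change of GCE/GCE against GCE/+ for each member with its 95% interval from the edgeR fit on all 4 samples, coloured by the tests that gave an adjusted p under 0.1. *Bmp4* is called by both tests, *Bmp5*, *Inhba*, *Chrdl1* and *Fst* by DESeq2 alone, and the other 29 by neither.

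All 6 receptors had log2 fold changes above 0, with a median of 0.18, and 0 were called by edgeR or DESeq2. Of all tested genes, 7969 of 15645 were above 0. Without GCE/+ replicate 1 the estimates of *Bmpr1a*, *Bmpr1b*, *Bmpr2*, *Acvr1*, *Acvr2a* and *Acvr2b* were -0.04, 0.16, 0.08, 0.07, 0.04 and -0.10. Log2 fold change rose with transcript length over 15471 genes (Spearman's rho = 0.251). With an offset for transcript length, *Bmpr1a* was at 0.0009 and *Bmpr1b* at 0.22. The part of length in the receptor values was not tested. *Bmpr1a*, the main type I BMP receptor of the limb, was the highest receptor per length, at 45.0 to 53.1 CPM per kilobase. It had 268 and 309 CPM in GCE/+ replicates 1 and 2 and 288 and 316 CPM in GCE/GCE replicates 1 and 2, and the groups overlapped (log2 fold change 0.07, 95% interval -0.17 to 0.30). *Bmpr1b*, the type I receptor of cartilage condensations and the preferred partner of Gdf5, had 28.0 and 32.8 CPM in GCE/+ replicates 1 and 2 and 34.6 and 38.8 CPM in GCE/GCE replicates 1 and 2. Its log2 fold change was 0.27 (SE 0.11, edgeR adjusted p = 0.431), or 0.16 without GCE/+ replicate 1, and its 4 samples too stood in the order of the summed cartilage markers, whose part was not tested.

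*Bmpr2*, the type II BMP receptor, shows how 1 sample set an estimate. It had 29.7 CPM in GCE/+ replicate 1, and 50.9, 53.9 and 54.1 CPM in GCE/+ replicate 2 and in GCE/GCE replicates 1 and 2. The log2 fold change was 0.42 (SE 0.21, edgeR adjusted p = 0.555). It was 0.08 without GCE/+ replicate 1 and 0.86 without GCE/+ replicate 2 (edgeR adjusted p = 0.00634), and 0.26 when each sample's trend on transcript length was taken into account. *Acvr2b*, which encodes a type II receptor for activins and myostatin, likewise was lowest in GCE/+ replicate 1, at 4.37 CPM against 6.70 to 7.23 CPM elsewhere. The remaining receptors *Acvr1* (94.2 to 103.5 CPM) and *Acvr2a* (52.6 to 61.98 CPM) had log2 fold changes of 0.05 and 0.12.

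Inhibitors at the membrane and inside the cell differed little. *Bambi* encodes a decoy receptor without a kinase domain and is itself a target of BMP signalling. It had 42.8 and 34.8 CPM in GCE/+ replicates 1 and 2 and 36.3 and 35.0 CPM in GCE/GCE replicates 1 and 2, with a log2 fold change of -0.12 (95% interval -0.39 to 0.14). For *Smad6* and *Smad7*, which encode the inhibitory Smads and are induced by the pathway, the values were 0.00 (95% interval -0.26 to 0.26) and -0.11 (95% interval -0.30 to 0.07). *Smad7* had 93.2 to 107 CPM and *Smad6* 16.1 to 17.7 CPM.

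Of the genes for the signalling Smads, *Smad1* had 70.3 to 84.8 CPM with overlapping groups and a log2 fold change of 0.06. *Smad5* had 205 and 241 CPM in GCE/+ replicates 1 and 2 and 254 and 258.5 CPM in GCE/GCE replicates 1 and 2. The difference was 0.20 on the log2 scale (SE 0.10, edgeR adjusted p = 0.561). Without GCE/+ replicate 1 it was 0.08 (edgeR adjusted p = 0.977), without GCE/+ replicate 2 it was 0.32 (edgeR adjusted p = 0.0870), and with the trend on transcript length taken into account it was 0.12. These are transcript levels and hold no information on phosphorylation.

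The *Id* genes encode inhibitors of bHLH factors, MyoD among them, and are direct targets of BMP Smads. *Id2*, *Id3* and *Id1* were the 3 highest members per length, with means of 305.6, 251.9 and 194.9 CPM per kilobase in GCE/+ cells, against 288, 241 and 175.5 CPM per kilobase in GCE/GCE cells. *Id1* had 187 and 177 CPM in GCE/+ replicates 1 and 2 and 154 and 174 CPM in GCE/GCE replicates 1 and 2. Its log2 fold change of -0.15 (95% interval -0.36 to 0.06, edgeR adjusted p = 0.680) was the largest of the 4 in size. *Id2* had 383 and 393 CPM in the GCE/+ samples against 367 and 365 CPM in the GCE/GCE samples (log2 fold change -0.09, 95% interval -0.28 to 0.11). *Id3* and *Id4* overlapped between genotypes, with log2 fold changes of -0.06 and -0.03. All 4 were below 0 with a median of -0.07, and 0 of the 4 passed the edgeR test, the DESeq2 test or an unadjusted p of 0.05. With the offset for transcript length, the estimates of *Id1*, *Id2*, *Id3* and *Id4* were -0.12, -0.05, -0.02 and -0.04. The part of transcript length in the *Id* values was not tested. In the fit on all samples, the lowest end of the 4 intervals was -0.36 (*Id1*) and the highest was 0.17 (*Id4*). Each is the interval of a single gene, so together they set no joint limit on changes of *Id* transcripts.

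Which members passed the threshold depended on each of the 4 samples. In edgeR, 10 of the 34 were called without GCE/+ replicate 2, where 961 of all genes were called, and 0 without GCE/+ replicate 1, where 199 were. Without GCE/GCE replicate 1 there were 4, namely *Bmp5*, *Chrdl1*, *Fst* and *Gdf5*, beside 748 of all genes. *Bmp5* and *Inhba* were called without GCE/GCE replicate 2, beside 409 of all genes. The directions of *Bmp4*, *Fst*, *Bmp5*, *Inhba*, *Chrdl1*, *Grem1*, *Gdf5* and *Bmpr2* were kept in all 12 alternative fits. The genotypes did not overlap for any of these genes, so leaving out a sample could hardly reverse their sign. The remaining fits used the same 4 samples, so the kept directions are no separate evidence.

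**Figure D4:**
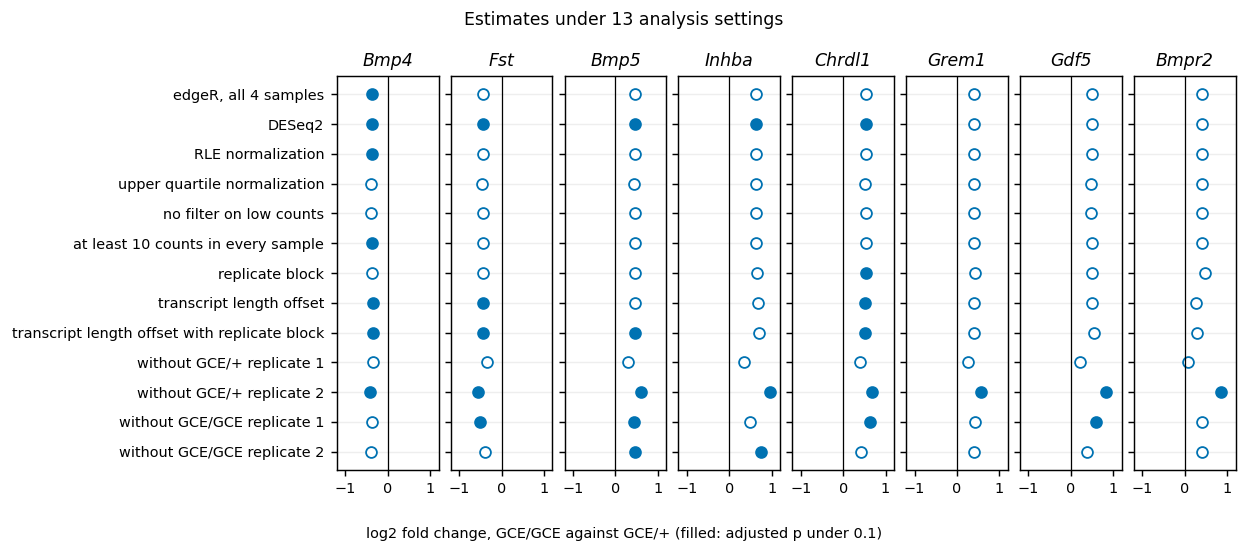
Log2 fold change of 8 members under 13 analysis settings, with filled points where the adjusted p was under 0.1. *Bmp4* stays between -0.41 and -0.34 and is filled in 7 settings, the one reported among them, and *Bmpr2* runs from 0.08 to 0.86 and is filled in 1.

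The wider pathway was covered by 67 other genes, of which 59 could be tested. Of these edgeR called 0, against 1.82% of all tested genes, with 10 at an unadjusted p under 0.05, against 10.5%. DESeq2 called 4 of the 51 it tested, against 3.45% of all genes. Their median log2 fold change was 0.03. *Dlx5*, a homeobox target of BMP signalling in bone and cartilage precursors, had 4.96 and 3.25 CPM in GCE/+ replicates 1 and 2 and 6.79 and 9.21 CPM in GCE/GCE replicates 1 and 2 (log2 fold change 0.96, SE 0.23, edgeR adjusted p = 0.125, DESeq2 adjusted p = 0.00891). *Neo1*, which encodes the receptor Neogenin that binds BMP co-receptors of the RGM family, had 351 and 379 CPM in the GCE/+ samples against 445 and 450 CPM in the GCE/GCE samples (log2 fold change 0.30, DESeq2 adjusted p = 0.0798). The groups were apart for both genes.

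The other pair called by DESeq2 was lower in GCE/GCE cells. *Tgfbr3* encodes betaglycan, a co-receptor for TGF-β and inhibin, and had 192 and 205 CPM in the GCE/+ samples against 162.5 and 148 CPM in the GCE/GCE samples (log2 fold change -0.35, SE 0.09, edgeR adjusted p = 0.125, DESeq2 adjusted p = 0.0337). *Acvrl1* encodes the endothelial type I receptor ALK1 and had 11.1 and 8.03 CPM in the GCE/+ samples against 6.70 and 5.60 CPM in the GCE/GCE samples (log2 fold change -0.64, DESeq2 adjusted p = 0.0905). Endothelial markers, 10 genes and 0 of them at 0 in all samples, summed to 140.5 and 112.9 CPM in the GCE/+ samples against 111.2 and 92.6 CPM in the GCE/GCE samples, and their part in the *Acvrl1* values was not tested. Classical BMP targets *Msx1* and *Msx2* were at 0.363 to 2.97 CPM, with log2 fold changes of -0.24 (SE 0.56) and -0.20 (SE 0.22). *Smad2*, *Smad3* and *Smad4*, the activin Smads and the partner shared by both branches, had log2 fold changes of -0.05, 0.26 and 0.02.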

How the data were processed

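RNA libraries (TruSeq RNA v2, no strand marking) from sorted cells of 2 GCE/+ and 2 GCE/GCE embryos were sequenced as paired 50-bp reads. The authors aligned these with TopHat2, guided by the UCSC gene model on mm9, and used HTSeq in its intersection-strict mode for counting. The deposited values are raw counts, whole numbers without normalization, 1 per gene symbol; tool versions are not given in the sources used here. Groups were taken from the sample titles. The titles number the samples, but correlated deviations were not found (r = -0.041 over 9755 genes).

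Counts were filtered with filterByExpr, normalized by TMM and fitted with edgeR 4.0.16 (glmQLFit, glmQLFTest, two-sided) in R 4.3.3, over all 15645 genes. The threshold of 0.1 follows the study's methods, which name no covariate, and none was used; the authors' tool DESeq2 (version 1.42.0 here) was the first alternative. Scripts were tested on simulated data. With 2 samples a group, the smallest two-sided exact permutation p is 0.333, so p-values rest on a spread shared across genes, measured between these samples only. Intervals are 95% intervals of the fit, and floors of 3 counts cover counting error only.

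The members, role groups, other pathway genes and marker lists were chosen with earlier results of these data known. The rule for named genes was all 34 members, the other pathway genes called by edgeR or DESeq2, and *Osr1*. The genes *Xist*, *Msx1*, *Msx2*, *Dlx6*, *Sp7*, *Atoh8*, *Hey1*, *Smad2*, *Smad3* and *Smad4* were added after their values were seen. Transcript lengths, positions and overlaps came from GENCODE M21 on GRCm38, matched by symbol for 98.0% of genes, and no mm9 position was converted. CPM per kilobase used the RefSeq-linked transcript. Promoter windows came from RefSeq (GRCm38.p6).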

Additional observations from a re-analysis of the deposited data

How the results depend on the processing

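Over all genes, 285 passed the threshold. There were 508 with DESeq2, 127 without a filter on low counts, 130 at an adjusted p under 0.05 and 441 with an offset for transcript length together with the replicate block. Leaving out each sample in turn gave 199 to 961 genes. Among the 34 members, where 1 was called, DESeq2 called 5, the length offset 3, and the length offset with the replicate block 4. Upper quartile normalization, no filter and an adjusted p under 0.05 called 0. Leaving out each sample called 0 to 10. The replicate block alone gave 290 genes and 1 member, *Chrdl1* (adjusted p = 0.0666) in place of *Bmp4* (adjusted p = 0.151). For the other pathway genes, 0 were called, against 4 with DESeq2, 2 with the length offset, 2 with the length offset and block, and 0 to 6 without each sample. Of 408 member estimates under alternatives, 359 kept direction and side of the threshold, 25 newly passed, 6 (all of *Bmp4*) no longer passed and 18 reversed, in 10 genes whose reported log2 fold change was at most 0.23 in size. Leaving out each sample moved *Bmp2* from -0.03 to 0.15, *Gdf11* from -0.27 to 0.20, *Inhbb* from -0.20 to 0.02, *Bmpr1a* from -0.04 to 0.17, *Acvr1* from -0.02 to 0.11, *Acvr2b* from -0.10 to 0.63, *Bambi* from -0.27 to 0.03, *Smad1* from -0.07 to 0.20, *Smad6* from -0.07 to 0.06 and *Id4* from -0.09 to 0.02. *Bmpr1a* was -0.0009 with the length offset and block, and *Smad6* -0.01 with upper quartile normalization and -0.001 without a filter. The cause of these moves was not tested. Where leaving out a sample left 1 in a group, it was assumed to vary like the others. With another transcript choice, chosen after seeing the data, 4 members' levels per length moved. With 2 samples a group, the gap between GCE/+ samples exceeded the genotype difference for 16 of 34 members, a share not counted over all genes.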
